A study of Drosophila melanogaster with 9 samples.

Results

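Embryos laid by obe2/Df mothers were compared with embryos laid by obe1/obe2 mothers, the pair of mutant genotypes that share the obe2 allele of obelus. The gene, obe, encodes a Ski2-family RNA helicase. Mothers were transheterozygous, obe1/obe2 or obe2/Df, and in both cases were mated to obe2/+ males, so the named genotype is that of the mother and each group of embryos was a mixture of genotypes. Df stands for a deficiency, a chromosome from which a segment has been deleted. The labels name neither the deficiency nor the lesions of the alleles. The remaining group of the study, OreR (the wild-type strain Oregon-R), is given as a level beside some results and enters no test here. Each group had 3 libraries, and each library was made from about 50 hand-picked embryos, 3 h old, collected at 25C and labelled as late stage 5 to early stage 6. Nothing in the labels says that the 3 libraries of a group come from different crosses, so the p-values below rest on the spread of these libraries alone, part or all of which may be technical. All 6 libraries of the mutant groups were used, of 9 in the study. Of 15334 genes in the deposited matrix, 8287 averaged 10 or more normalized counts over these 6 libraries and are the genes described, and 7047 averaged less.

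A fly embryo starts on RNA and protein loaded into the egg by the mother. Over the nuclear cycles that lead to the cellular blastoderm, many of these maternal RNAs are destroyed while the embryo's own genome, the zygotic genome, is switched on. The first zygotic genes include the factors that build cell membranes around the nuclei, those that count X chromosomes, and the gap, pair-rule and dorsal-ventral genes that lay out the body plan. Gastrulation follows at once. Ski2-family helicases unwind RNA, and several of them feed RNA to the exosome, the complex that degrades or trims RNA from its 3′ end.

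Recovered read totals ran from 61007517 to 123121486 in these 6 libraries, and replicate 1 of obe2/Df was the deepest. On a principal component analysis of the tested genes, the first component held 69.2% of the variance and split the genotypes. obe2/Df replicate 1 lay at 87.6 on it, against 25.8 and 34.6 for replicates 2 and 3, and the obe1/obe2 libraries lay at -25.3, -69.4 and -53.2. Many values below are therefore given also without obe2/Df replicate 1. The label of the stage was set beside zygotic genes, those transcribed first and the gap and terminal genes. With the obe1/obe2 mean set to 100%, the first zygotic genes had a median level of 0.472%, 18.6% and 14.5% in obe2/Df replicates 1, 2 and 3, against 68.2%, 151% and 92.4% in the obe1/obe2 libraries and 136% to 176% in OreR. The median gene of this list was thus close to absent in replicate 1 of obe2/Df, though Bsg25D and CG9883 were not (26462 and 17283 normalized counts). On the same scale the median gap and terminal gene stood at 1.05%, 30.6% and 31.7% in obe2/Df replicates 1, 2 and 3. Embryos at an earlier point, embryos with less zygotic RNA at the same point, and a smaller share of embryos with zygotic RNA cannot be told apart in RNA pooled from whole embryos.

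Of the 8287 genes, 3355 differed between the genotypes (40.5%, limma, adjusted p under 0.05). In obe2/Df 1939 were higher (23.4%) and 1416 were lower (17.1%). Rises were moderate and numerous, with a median log2 change of 1.10 among genes called higher. Most falls were small, with a median of -0.39, and a minority were very deep. At least 2-fold changes were called for 1088 genes that rose (13.1%) and 277 that fell (3.34%), while at least 8-fold changes were called for 68 that rose (0.821%) and 131 that fell (1.58%). An unadjusted p under 0.05 was found for 4331 genes (52.3%). The groups did not overlap for 4997 genes (60.3%), with obe2/Df above in 2580 (31.1%) and below in 2417 (29.2%). These shares of called and of non-overlapping genes are the background for the lists below, apart from lists made after their values were seen. The other lists too were chosen with earlier results of these data known, so the shares beside them are a description and not a test. Over all tested genes the median log2 change was -0.03. OreR lay nearer to obe1/obe2 than to obe2/Df for 1595 (82.3%) of the genes that rose and for 1093 (77.2%) of those that fell. The same share over all tested genes was not computed, so these 2 shares have no background beside them. With quantile normalization the split became 1751 higher and 2106 lower, so the balance of rises and falls depended on the scaling. The counts also depended on single libraries. Without obe2/Df replicate 1, 2015 genes were called (24.3%), of which 1206 were higher (14.6%) and 809 lower (9.76%). At least 2-fold, 915 (11%) were then higher and 243 (2.93%) lower, and at least 8-fold, 68 (0.821%) and 91 (1.1%), while 3535 (42.7%) had an unadjusted p under 0.05. Leaving out obe2/Df replicate 2 gave 1338 and 797, and leaving out replicate 3 gave 584 and 427. The counts were 1487 and 780 without obe1/obe2 replicate 2, and 491 and 231 without obe1/obe2 replicate 3. Genes called both in a reduced set and in the full set, 721 to 3198 of them, all kept their direction. Of 209 called genes chosen by rule to be named below, 50 were no longer called without obe2/Df replicate 1, 42 without replicate 2 and 118 without replicate 3, and 8, 53 and 143 without obe1/obe2 replicates 1, 2 and 3.

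**Figure D1:**
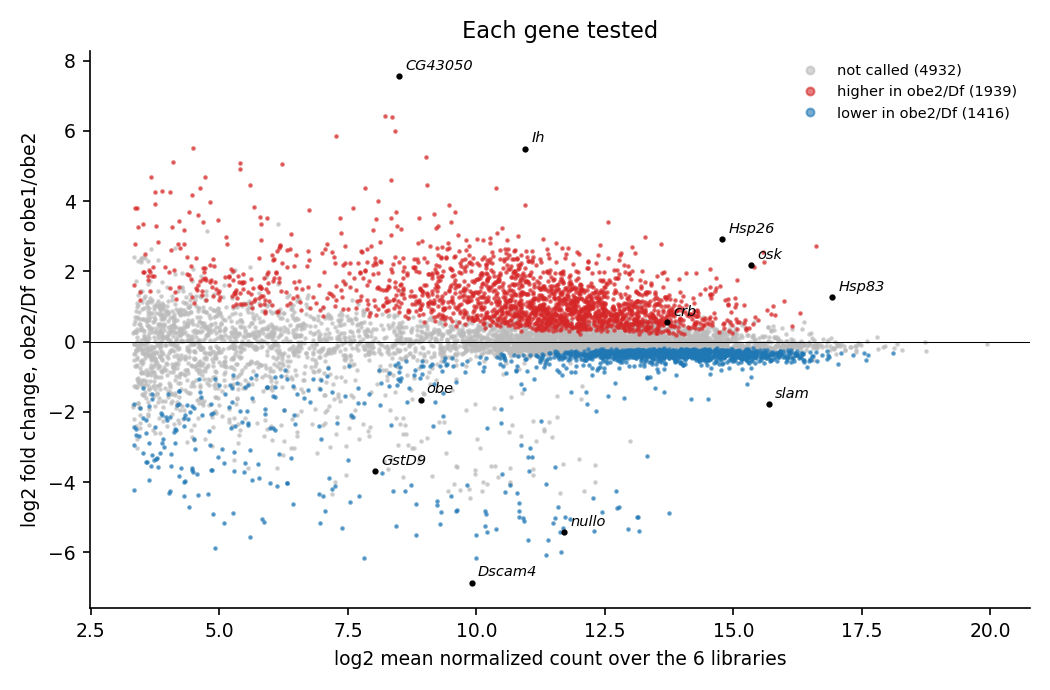
Log2 fold change of obe2/Df over obe1/obe2 (vertical) against the log2 mean normalized count over the 6 libraries (horizontal), with 1 point for each of the 8287 genes tested. Red points are the 1939 genes called higher and blue points the 1416 called lower; many rises lie near 1.10, most falls near -0.39, and a separate group of blue points lies below -3.

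The targeted gene itself was measured first. obe RNA stood at 821, 672 and 698 normalized counts in the obe1/obe2 libraries and at 277, 245 and 183 in obe2/Df (log2 change -1.65 ± 0.21, limma adjusted p = 0.00905). The groups did not overlap, and both were far below the 5850.1, 8562 and 6755 of OreR. obe2/Df thus held 32.2% of the obe1/obe2 mean, which was itself 10.4% of the OreR mean. The study's title ties obe to the splicing of crb, the gene for Crumbs, a transmembrane protein that sets up the apical side of epithelial cells. Gene totals do not measure splicing. The total of crb was 12309, 9529 and 10561 in obe1/obe2 against 16872, 15304 and 15540.1 in obe2/Df (log2 change 0.57 ± 0.11, limma adjusted p = 0.0122), higher in every obe2/Df library.

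Zygotic genes of the blastoderm were among the deepest falls. Of 20 tested genes among the first to be transcribed, 14 fell, 0 rose, and the median log2 change was -4.35. All 20 were lower in each obe2/Df library than in any obe1/obe2 library, against 29.2% of all tested genes. Without obe2/Df replicate 1, 17 of the 20 fell and the median was -2.86. amos, a proneural transcription factor, was at 3589.6, 6307 and 5206 in obe1/obe2 against 10.4, 641 and 50.8 in obe2/Df (log2 change -6.08 ± 1.34, limma adjusted p = 0.0166, and -4.75 without obe2/Df replicate 1). scw, which encodes the BMP ligand Screw, was at 6112, 14268 and 8391 against 39.1, 1211 and 209.9 (log2 change -5.37 ± 1.15, limma adjusted p = 0.0152, and -4.16 without obe2/Df replicate 1). In both genes obe2/Df replicate 1 was lowest and replicate 2 highest of its group, and neither reached the obe1/obe2 range. The dorsal homeobox genes zen and zen2 changed by -4.04 ± 0.94 and -4.91 ± 1.14 (limma adjusted p = 0.0192 and 0.0189), and -2.90 and -3.51 without that library. Bsg25A, a subunit of the early boundary complex ELBA, was at 11399.6, 27948 and 12435 against 71.6, 1817 and 930.4 (log2 change -4.99 ± 1.15, limma adjusted p = 0.0185, and -3.60 without obe2/Df replicate 1). CG9883 (Elba2) of the same complex fell far less, from 26251, 38051 and 27789.6 to 17283, 19598 and 17333 (log2 change -0.75 ± 0.15, limma adjusted p = 0.0133). CG15634 (Elba3), its last subunit, was at 11799.8, 27048 and 13553 against 49.5, 1648 and 713 (log2 change -5.38 ± 1.22, limma adjusted p = 0.0177, and -3.91 without obe2/Df replicate 1). For Bsg25A and CG15634, as for scw, replicate 1 was lowest, while the 3 obe2/Df values of CG9883 lay close together. The 6 members that were not called, sisA, Z600, Ocho, Tom, CG13427 and CG14427, had log2 changes between -3.34 and -3.98 with adjusted p between 0.0556 and 0.191.

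The 4 zygotic genes that drive cellularization, the growth of membranes between the blastoderm nuclei, all fell, with and without obe2/Df replicate 1. nullo, needed for stable furrows, was at 4141, 9261 and 5701 in obe1/obe2 against 24.7, 818 and 130.4 in obe2/Df (log2 change -5.42 ± 1.16, limma adjusted p = 0.0153, and -4.20 without obe2/Df replicate 1). bnk, which restrains furrow closure, was at 10732, 27912 and 12121 against 54.7, 1395 and 1485 (log2 change -4.98 ± 1.27, limma adjusted p = 0.0244, and -3.42 without obe2/Df replicate 1). Sry-alpha was at 9971, 32518 and 11210.1 against 292, 3426 and 4079 (log2 change -3.26 ± 1.05, limma adjusted p = 0.0467, and -2.04 without obe2/Df replicate 1). The zygotic furrow genes were therefore low in each obe2/Df library, and lowest in replicate 1. slam, which recruits proteins to the furrow, fell least, from 63813, 125516 and 58894 to 19809, 25434 and 23484 (log2 change -1.77 ± 0.29, limma adjusted p = 0.0107), and its 3 obe2/Df values were close together. Among 13 furrow genes supplied by the mother, 3 rose (23.1%) and 5 fell (38.5%), with a median of -0.18. Over all tested genes 23.4% rose and 17.1% fell, so the share of rises was close to that of all genes. RhoGEF2, an exchange factor at furrows, rose from 4901, 2693 and 2745 to 13187, 11554 and 12949.7 (log2 change 1.92 ± 0.23, limma adjusted p = 0.00764). The cytokinesis gene pbl and the dynein heavy chain Dhc64C rose by 0.79 ± 0.13 and 1.22 ± 0.27 on the log2 scale. With obe2/Df replicate 1 left out, the counts of this list were 3 higher and 3 lower. Cip4, Abl, nuf and scra (anillin) fell by less, with log2 changes of -0.31 ± 0.06, -0.45 ± 0.10, -0.25 ± 0.06 and -0.34 ± 0.08.

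**Figure D2:**
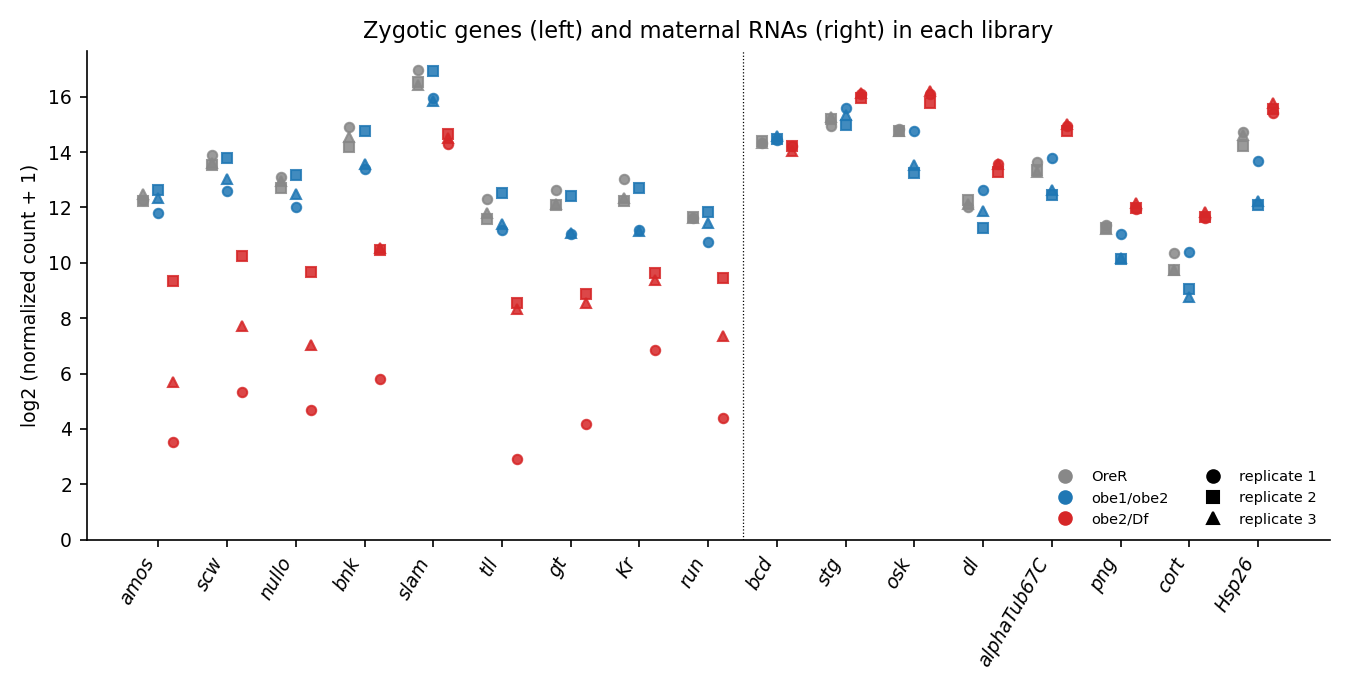
Log2(normalized count + 1) of 9 zygotic genes (left of the dotted line) and 8 RNAs loaded by the mother (right) in each of the 9 libraries, coloured by genotype, with the replicate number as the marker shape. The red obe2/Df points lie below the blue obe1/obe2 points for the zygotic genes, lowest in replicate 1, and above them for stg to Hsp26.

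Patterning genes were again lowest in obe2/Df replicate 1, with fewer calls. With the obe1/obe2 mean set to 100%, the median gap and terminal gene stood at 1.05%, 30.6% and 31.7% in obe2/Df replicates 1, 2 and 3, and the median pair-rule gene at 1.12%, 38.1% and 29.3%. Of 16 gap and terminal genes, which divide the embryo into broad regions, 1 rose and 5 fell, with a median of -3.41. Leaving out obe2/Df replicate 1, the counts were 0 higher and 8 lower, with a median of -1.87. tll, the terminal gap gene, was at 2340.4, 5903 and 2687 in obe1/obe2 against 6.51, 378 and 317 in obe2/Df (log2 change -5.11 ± 1.48, limma adjusted p = 0.035, and -3.26 without obe2/Df replicate 1). gt was at 2081, 5486 and 2143 against 16.9, 470.02 and 372 (log2 change -4.31 ± 1.25, limma adjusted p = 0.0346, and -2.79 without obe2/Df replicate 1). Kr was at 2315, 6605 and 2252 against 115, 792 and 672 (log2 change -3.04 ± 0.81, limma adjusted p = 0.0273, and -2.15 without obe2/Df replicate 1). None of these 3 overlapped between the groups, and 29.2% of all tested genes were likewise lower without overlap. hb, which is both maternal and zygotic, changed by -0.44 ± 0.13 (limma adjusted p = 0.0424, and 0.075 without obe2/Df replicate 1). The exception was cnc, a transcription factor of the head, which rose from 21426, 12098 and 17051 to 29396, 23193 and 25319 (log2 change 0.66 ± 0.21, limma adjusted p = 0.046) but was not called without obe2/Df replicate 1 (adjusted p = 0.117).

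All 9 pair-rule genes, which lay out the segments in stripes, had negative log2 changes, with a median of -3.16, or -1.58 without obe2/Df replicate 1. Only run and slp1 were called, and run, slp1 and 2 more were called without obe2/Df replicate 1. run was at 1712, 3687 and 2739 in obe1/obe2 against 20.2, 691 and 161 in obe2/Df (log2 change -4.28 ± 1.17, limma adjusted p = 0.0299, and -2.95 without obe2/Df replicate 1). slp1 was at 1367, 3067 and 1936 against 5.21, 318 and 181 (log2 change -4.82 ± 1.42, limma adjusted p = 0.0366, and -3.06 without obe2/Df replicate 1). eve, a pair-rule gene that missed the threshold, was at 609.8, 1468 and 879.8 against 5.86, 297 and 139 (log2 change -3.81 ± 1.34, limma adjusted p = 0.0605), so its groups did not overlap either. Among 9 segment polarity genes 2 fell (22.2%, against 17.1% of all tested genes). They were the signal hh (log2 change -2.57 ± 0.67) and the T-box gene mid (-3.19 ± 0.84). The call of hh was lost without obe2/Df replicate 1 (adjusted p = 0.0563). The median of this list was -1.45, and -0.61 without that library. The homeotic genes, active mostly later, had 2 falls among 9 (22.2%), lab (-1.89 ± 0.49) and exd (-0.36 ± 0.09). Their median of -1.09 became -0.06 without obe2/Df replicate 1. exd was then not called (limma adjusted p = 0.0659).

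Along the dorsal-ventral axis, calls were few and the spread among obe2/Df libraries was wide. Of 15 dorsal ectoderm and amnioserosa genes, 1 rose (6.67%) and 2 fell (13.3%), against 23.4% and 17.1% of all tested genes. The median of -1.43 became -0.19 without replicate 1, when the counts were 0 higher and 3 lower. tsg, which encodes a BMP-binding protein, was at 2439.98, 5121 and 3324 in obe1/obe2 against 13, 411 and 207 in obe2/Df (log2 change -5.03 ± 1.19, limma adjusted p = 0.0199, and -3.57 without obe2/Df replicate 1). tld, a protease that frees BMP ligands, was at 3395, 9476 and 4124 against 14.3, 681 and 709 (log2 change -4.71 ± 1.48, limma adjusted p = 0.0438, and -2.87 without obe2/Df replicate 1). In both, every obe2/Df library was below every obe1/obe2 library, as in 29.2% of all tested genes, and replicate 1 was near 0. ush, a GATA cofactor, rose by 0.65 ± 0.19 and was not called without replicate 1 (limma adjusted p = 0.036 and 0.0635). Of 12 neuroectoderm genes only the proneural genes ac and l(1)sc fell (16.7%, close to the 17.1% of all tested genes). The median of the 12 was -2.19, or -1.06 without replicate 1. l(1)sc was at 1498, 3179 and 2859.9 against 7.81, 394 and 59.3 (log2 change -5.33 ± 1.27, limma adjusted p = 0.0204, and -3.95 without obe2/Df replicate 1). Among 14 mesoderm genes, 2 rose (14.3%) and 1 fell (7.14%), both below the shares over all tested genes. The median turned from -0.43 to 0.12 without replicate 1, when the counts were 1 higher and 4 lower. The single fall was wntD, a Wnt that limits Dorsal, at 174, 299 and 232 against 0, 41.1 and 30.5 (log2 change -4.39 ± 1.39, limma adjusted p = 0.0446, and -2.66 without obe2/Df replicate 1). twi, the master gene of the mesoderm, was at 1846, 4818 and 1840.2 against 9.11, 665 and 533 (log2 change -4.05 ± 1.58, limma adjusted p = 0.0799). The transcription factor gene zfh1 and the gastrulation gene T48 rose by 0.86 ± 0.18 and 0.81 ± 0.21, and T48 was not called without replicate 1 (limma adjusted p = 0.0663). Among 10 Notch pathway genes, Su(H), H, Dl and kuz fell slightly, by log2 changes of -0.45 ± 0.08, -0.41 ± 0.09, -0.38 ± 0.08 and -0.47 ± 0.09, and 0 rose.

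The 15 largest falls were taken by rule from called genes averaging 50 or more counts whose groups did not overlap. They hold amos, scw, nullo and CG15634 from above. Among the others, the proneural gene ato was at 433, 303 and 539 in obe1/obe2 against 0, 71.9 and 1.69 in obe2/Df (log2 change -6.16 ± 1.50, limma adjusted p = 0.0213, and -4.89 without obe2/Df replicate 1). Its relative sc was at 3177, 7172 and 4987 against 19.5, 776 and 57.6 (log2 change -5.63 ± 1.25, limma adjusted p = 0.0168, and -4.51 without obe2/Df replicate 1). Bro, the binding partner of Runt proteins, was at 3854, 8806 and 5426 against 22.1, 631 and 164 (log2 change -5.41 ± 1.12, limma adjusted p = 0.0143, and -4.14 without obe2/Df replicate 1). For these 3 genes, as for all 15, the lack of overlap was a condition of the rule. The forkhead gene fd19B changed by -5.51 ± 1.41 (-4.04 without obe2/Df replicate 1). CG18269, CG13712, CG13716, CG34266 and CG14014, which the files name without a role, changed by -5.97 ± 1.18, -5.65 ± 1.27, -5.49 ± 1.18, -5.41 ± 1.33 and -5.33 ± 1.35. For these 9 genes, replicate 2 was the highest obe2/Df library. A pair of other genes had a different pattern, being high in obe1/obe2 alone. Dscam4, of a family of immunoglobulin cell adhesion proteins, was at 2035, 1857 and 1729 in obe1/obe2, 6.51, 127 and 3.39 in obe2/Df and 0, 8.46 and 0 in OreR (log2 change -6.85 ± 1.20, limma adjusted p = 0.0115). CG13032 was at 1898, 2076 and 1926 in obe1/obe2, 29.9, 152 and 3.39 in obe2/Df and 7.06, 6.77 and 19.1 in OreR (log2 change -6.16 ± 1.17, limma adjusted p = 0.0124). In both, the 127 and 152 counts of obe2/Df replicate 2 stood above the rest of that group.

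RNAs that the mother loads into the egg moved both ways, and in the list of cleared RNAs the larger changes were rises. Among 17 maternal RNAs that embryos clear at the maternal-to-zygotic transition, 8 rose and 2 fell, with a median of 0.08. alphaTub67C, the maternal alpha-tubulin, was at 14145, 5594 and 6274 in obe1/obe2 against 31602, 27658 and 33311 in obe2/Df (log2 change 1.96 ± 0.34, limma adjusted p = 0.0114). cort, an activator of the anaphase-promoting complex in the egg, rose from 1332, 525 and 439 to 3168, 3229.8 and 3662 (log2 change 2.31 ± 0.40, limma adjusted p = 0.0115). fs(1)Ya, a nuclear lamina protein needed for the first divisions, rose from 6027, 2678 and 3009.9 to 13033, 11758 and 13128 (log2 change 1.79 ± 0.29, limma adjusted p = 0.011). In these 3 genes obe1/obe2 replicate 1 was the highest of its group but stayed below every obe2/Df library. png, the kinase that activates maternal RNA translation at egg activation, rose by 1.59 ± 0.25 (limma adjusted p = 0.0104). stg, the Cdc25 phosphatase of the zygotic divisions, which also has maternal RNA, rose by 0.77 ± 0.16 (0.0139). The other rises of the list were osk and Hsp83, given below, and gnu, and the falls were bcd and CycB3. CycB3, a mitotic cyclin, fell from 74299, 82827 and 81695 to 58222, 59424 and 57813 (log2 change -0.44 ± 0.07, limma adjusted p = 0.0103), and CycB had a log2 change of -0.02 ± 0.09 (0.86). smg, whose product drives maternal RNA decay, had a log2 change of -0.08 ± 0.11 (0.571).

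Among 23 maternal genes that set the body axes, 6 rose (26.1%) and 8 fell (34.8%). Without obe2/Df replicate 1 the counts were 3 higher and 6 lower. osk, the organizer of the posterior germ plasm, was at 28019, 9575 and 11794 in obe1/obe2, 70369, 55327 and 74943 in obe2/Df and 29486, 27777 and 27534 in OreR (log2 change 2.18 ± 0.39, limma adjusted p = 0.0117). dl, the Dorsal transcription factor, rose from 6362, 2466 and 3776 to 12029, 10034 and 12219.9 (log2 change 1.55 ± 0.32, limma adjusted p = 0.0144). spz, the Toll ligand, rose from 8343, 4479 and 6797 to 13187, 11576 and 14297 (log2 change 1.03 ± 0.22, limma adjusted p = 0.0159). As for alphaTub67C, obe1/obe2 replicate 1 was the highest of its group. exu, which localizes bicoid RNA, vas, a germ plasm helicase, and trk, the Torso ligand, rose by 1.60 ± 0.41, 0.87 ± 0.21 and 1.07 ± 0.26 (limma adjusted p = 0.0246, 0.0202 and 0.0207), and none of these 3 was called without obe2/Df replicate 1 (adjusted p = 0.057, 0.052 and 0.0538). The largest fall, of the protease gene ea (-1.44 ± 0.12), lies beside obe and is described with its neighbours. The other falls were shallow. bcd, the anterior determinant, was at 22322, 22545 and 24341 against 19128, 18857 and 16758 (log2 change -0.34 ± 0.08, limma adjusted p = 0.0177), the receptor gene tor changed by -0.34 ± 0.06, and fs(1)K10 by -0.44 ± 0.07. Tl, cact, pll and pum changed by between -0.37 and -0.31 on the log2 scale. A list of 17 tested genes held factors that repress or destroy maternal RNA. It also held lok, grp, vfl (zld) and eIF-4E, which are not such factors. Of the 17, 4 rose, among them the checkpoint kinases lok (1.08 ± 0.17) and grp (0.56 ± 0.13) and the repressor brat (0.75 ± 0.17). The 3 falls were pum, Not1 and Rga (log2 changes of -0.33 ± 0.10, -0.44 ± 0.13 and -0.38 ± 0.06). For this list the counts were 2 higher and 3 lower without obe2/Df replicate 1.

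Germline genes also moved both ways. Of 13 pole cell and germ plasm genes, 7 rose and 4 fell, with a median of 0.64, while without obe2/Df replicate 1 the counts were 4 higher and 2 lower. tud, which encodes the germ plasm protein Tudor, rose from 8674, 4228 and 4374 to 17265, 12369 and 14490.4 (log2 change 1.42 ± 0.29, limma adjusted p = 0.0139). pgc, a repressor of transcription in pole cells, rose from 13849, 8638 and 9874 to 18898, 16987 and 22015 (log2 change 0.86 ± 0.19, limma adjusted p = 0.016). The actin nucleators capu and spir rose by 0.70 ± 0.12 and 0.64 ± 0.19. Every obe2/Df library was above every obe1/obe2 library for these 4 genes, as for 31.1% of all tested genes. spir was not called without obe2/Df replicate 1 (limma adjusted p = 0.0929). The piRNA genes mael, tej and aub fell, with log2 changes of -0.58 ± 0.08, -0.39 ± 0.08 and -0.31 ± 0.06. In the wider piRNA pathway, which silences transposons, 5 rose and 4 fell among 21. cuff, del and shu rose by 1.88 ± 0.30, 1.22 ± 0.23 and 1.72 ± 0.35, and AGO3, a Piwi-family slicer, fell from 36785, 42612 and 37007 to 22196, 25720 and 21144 (log2 change -0.75 ± 0.10, limma adjusted p = 0.00956). These shares of calls were close to those over all genes, and without obe2/Df replicate 1 the counts were 3 higher and 3 lower.

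Of the heat shock genes, 2 of 12 rose (16.7%, against 23.4% of all tested genes) and 0 fell. Both genes that rose have maternal RNA. Hsp26, a small heat shock protein, was at 13063, 4298 and 4774 in obe1/obe2 against 43076, 48095 and 55879.9 in obe2/Df, with 27023, 19218 and 25274 in OreR (log2 change 2.92 ± 0.41, limma adjusted p = 0.00973). Hsp83, the fly Hsp90, rose from 110478, 52445 and 62854 to 178687, 153791 and 187177 (log2 change 1.27 ± 0.27, limma adjusted p = 0.0147). The stress-inducible Hsp68 was at 139, 206 and 185 against 149.7, 194 and 237 (log2 change 0.13 ± 0.27, limma adjusted p = 0.726). Another 4 abundant RNAs, chosen after their values were seen, rose in all obe2/Df libraries and were highest in replicate 1 among those of obe1/obe2. They are dhd, a thioredoxin of the egg (2.72 ± 0.46), BicC, an RNA-binding protein (2.54 ± 0.51), yl, the yolk protein receptor (2.27 ± 0.33), and Gapdh2 (2.14 ± 0.40).

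Some genes of replication, glycolysis and protein folding rose in obe2/Df. The 4 lists of this paragraph were put together after their members' values had been seen, so their counts describe these members and are not set against the share over all genes. Of 8 DNA polymerase subunit genes 6 rose and 0 fell, with a median of 1.37. DNApol-eta (PolH), a translesion polymerase, was at 794, 499 and 507 in obe1/obe2 against 4247, 4285 and 4775 in obe2/Df (log2 change 2.92 ± 0.20, limma adjusted p = 0.0023). The primase and polymerase alpha subunit genes DNApol-alpha60, DNApol-alpha73 and DNApol-alpha180 rose by 1.81 ± 0.34, 1.67 ± 0.31 and 1.08 ± 0.17. Of 14 replication licensing genes, 8 rose and 3 fell (without obe2/Df replicate 1, 3 higher and 1 lower). The origin-binding subunits Orc2 and Orc4 and the helicase subunit Mcm3 rose by 1.65 ± 0.36, 1.50 ± 0.33 and 1.27 ± 0.26, while Mcm7, dup and Cdc6 fell by less (-0.31 ± 0.07, -0.25 ± 0.06 and -0.29 ± 0.07). Of 12 glycolytic genes, 9 rose and 2 fell (7 higher and 1 lower without obe2/Df replicate 1). Pgi, phosphoglucose isomerase, rose from 2988, 1083 and 805 to 9405, 8623 and 9823 (log2 change 2.75 ± 0.45, limma adjusted p = 0.011), and Pgk and PyK by 1.52 ± 0.24 and 1.55 ± 0.27. ImpL3 (Ldh), lactate dehydrogenase, went the other way, from 124, 353 and 134 to 13, 64.2 and 44 (log2 change -2.39 ± 0.68, limma adjusted p = 0.0336), a call lost without obe2/Df replicate 1 (adjusted p = 0.0591). Of 8 subunits of the CCT chaperonin 5 rose and 0 fell (2 and 0 without obe2/Df replicate 1), with CG7033 (CCT2) at 1.51 ± 0.26 and CG8258 (CCT8) at 1.22 ± 0.24.

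Of 22 proteasome genes, 9 rose (40.9%) and 1 fell (4.55%), with 5 higher and 0 lower without obe2/Df replicate 1. Rpn7 and Rpn11, subunits of the regulatory lid, rose by 1.58 ± 0.26 and 1.41 ± 0.25 on the log2 scale. Rpt6R, a variant of an ATPase subunit of the base, rose from 19.1, 12.8 and 20.2 to 69, 59.1 and 67.7 (log2 change 1.87 ± 0.32, limma adjusted p = 0.0114), with no overlap. Among ribosomal protein genes fewer were called. Of 72 mitochondrial ones, 14 rose (19.4%) and 2 fell (2.78%), led by mRpS25 (2.68 ± 0.31) and mRpL38 (2.53 ± 0.45), with a median of 0.01. Of 85 cytosolic ones, 1 rose and 3 fell (1 higher and 1 lower without obe2/Df replicate 1). The fall of RpS5b, a germline variant, was the deepest, from 16824, 20829 and 22077 to 9559.6, 11486 and 9825 (log2 change -0.95 ± 0.13, limma adjusted p = 0.00941). Of 20 vacuolar ATPase genes, 2 rose (10%) and 2 fell (10%), and of 8 histone genes, 2 rose (25%) and 2 fell (25%). The counts were 1 higher and 1 lower among the former and 1 higher and 0 lower among the latter without obe2/Df replicate 1. The risen histone genes were cid, the centromeric histone (1.94 ± 0.33), and CG3509 (BigH1), the embryonic linker histone (0.36 ± 0.11). Of 15 cell cycle genes of the blastoderm, 3 rose (20%) and 2 fell (13.3%), with 2 higher and 1 lower without obe2/Df replicate 1. Over all tested genes 23.4% rose and 17.1% fell.

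**Figure D3:**
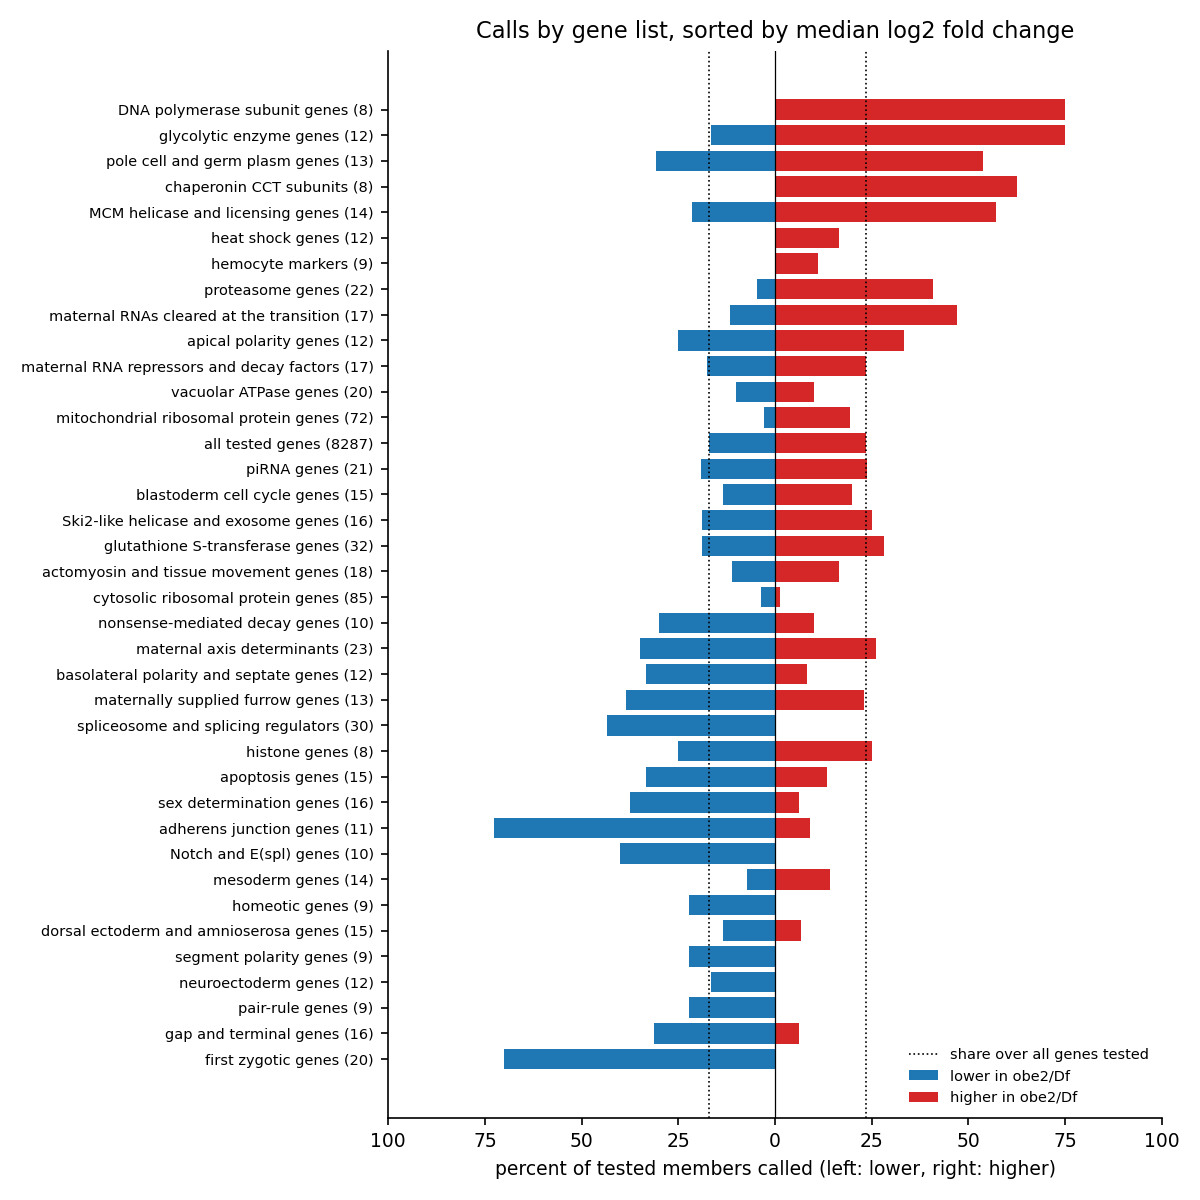
Percent of tested members called lower (blue, to the left) and higher (red, to the right) in obe2/Df for each gene list with at least 8 tested members, the number tested in brackets, sorted by median log2 change. The dotted lines mark 17.1% and 23.4%, the shares over all 8287 genes. They are no background for the DNA polymerase, licensing, glycolytic and CCT lists, which were made after their values were seen. First zygotic and adherens junction genes reach farthest to the left, and DNA polymerase and glycolytic genes farthest to the right.

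Epithelial genes changed little in size. Of 12 apical polarity genes 4 rose (33.3%), crb, veli, Moe and kst, and 3 fell (25%), par-6, aPKC and Cdc42. veli (Lin-7), a scaffold of the Crumbs complex, rose by 0.54 ± 0.13, and kst and Moe, which link the apical membrane to the cytoskeleton, by 0.70 ± 0.22 and 0.55 ± 0.16. par-6 and aPKC, partners in the Par complex, changed by -0.24 ± 0.06 and -0.23 ± 0.06. Without obe2/Df replicate 1, crb was the single gene of this list still called (log2 change 0.52, limma adjusted p = 0.0343). Adherens junction genes, whose products join neighbouring cells, were more uniform. Of 11 tested, 8 fell and 1 rose, with a median of -0.35, and 6 fell without obe2/Df replicate 1. shg (E-cadherin) was at 40804, 45986 and 40343 in obe1/obe2 against 29752, 28692 and 24601 in obe2/Df (log2 change -0.62 ± 0.10, limma adjusted p = 0.0104). The actin linkers cno and alpha-Cat and the adhesion protein ed changed by -0.54 ± 0.10, -0.46 ± 0.08 and -0.44 ± 0.08. jub, an Ajuba LIM protein, rose by 0.96 ± 0.21.

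Among 12 basolateral genes 4 fell and 1 rose. cora, of the septate junction, was at 292, 343 and 398 in obe1/obe2 against 88.5, 100.2 and 120.2 in obe2/Df (log2 change -1.73 ± 0.23, limma adjusted p = 0.00973), whereas scrib, Cont and l(2)gl fell by less (-0.47 ± 0.10, -0.42 ± 0.07 and -0.25 ± 0.07). Atpalpha, the sodium pump subunit, rose by 1.03 ± 0.24. Of 18 genes of actomyosin and tissue movement, 3 rose (16.7%) and 2 fell (11.1%), below the 23.4% and 17.1% of all tested genes. The counts were 1 higher and 2 lower without obe2/Df replicate 1. The rises were RhoGEF2, T48 and mthl1 (the last 0.74 ± 0.17), and the falls ena and Abl (-0.45 ± 0.09 and -0.45 ± 0.10). The myosin light and heavy chain genes sqh and zip had log2 changes of -0.01 ± 0.09 and 0.12 ± 0.13 and were not called (limma adjusted p = 0.937 and 0.494).

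Genes of RNA processing and decay had mostly small changes. Of 30 spliceosome and splicing regulator genes 13 fell and 0 rose, with a median of -0.24, and without obe2/Df replicate 1 the counts were 6 and 1, the rise being ps, a splicing regulator (0.90). pea, a spliceosomal DEAH-box helicase, was at 17066, 18253 and 18939 in obe1/obe2 against 12336, 12755 and 11922 in obe2/Df (log2 change -0.55 ± 0.07, limma adjusted p = 0.00764). The splicing regulators heph (polypyrimidine tract-binding protein) and sqd changed by -0.60 ± 0.09 and -0.54 ± 0.10. Of 16 Ski2-like helicase and exosome genes, with obe itself among them, 4 rose and 3 fell, shares of 25% and 18.8% that are close to the 23.4% and 17.1% of all tested genes. Rrp4, Rrp45 and Rrp40, subunits of the exosome, rose by 1.71 ± 0.22, 1.01 ± 0.19 and 0.82 ± 0.19. The helicase gene mus301 rose by 1.02 ± 0.23. l(2)35Df (Mtr4), the nuclear exosome helicase, and the nuclease gene Rrp6 fell by log2 changes of -0.52 ± 0.09 and -0.46 ± 0.09. tst (Ski2), the cytoplasmic relative, was at 2712, 1964 and 1996 against 2915, 2405 and 2734 (log2 change 0.28 ± 0.16, limma adjusted p = 0.186). Of 10 nonsense-mediated decay genes Upf1 rose (0.96 ± 0.23) and Smg5, eIF4AIII and nonC fell (-0.52 ± 0.09, -0.44 ± 0.10 and -0.60 ± 0.15). Without obe2/Df replicate 1 the counts of the helicase and exosome list were 3 higher and 4 lower, and those of the decay list 0 higher and 2 lower.

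Of 16 sex determination genes, 1 rose and 6 fell (0 higher and 6 lower without obe2/Df replicate 1). The X-counting genes sc and run are given above, and dpn, their autosomal counterpart, was at 2549, 5223 and 3267 in obe1/obe2 against 173, 620.3 and 426 in obe2/Df (log2 change -3.29 ± 0.50, limma adjusted p = 0.0102, and -2.77 without obe2/Df replicate 1). vir, a cofactor of Sxl in splicing, changed by -0.68 ± 0.10. Sxl itself was at 1279.8, 4941 and 1039.8 against 535, 1928 and 1266 (log2 change -0.78 ± 0.70, limma adjusted p = 0.393) and overlapped. Of 7 dosage compensation genes, CG1832 (Clamp) and mle fell (-0.45 ± 0.06 and -0.40 ± 0.10). roX1, a noncoding RNA of the same complex, was at 4735, 16527 and 4519.8 against 48.8, 2648 and 1781, which did not pass the test (limma adjusted p = 0.102). Of 15 apoptosis genes, 2 rose (13.3%) and 5 fell (33.3%), with 1 higher and 2 lower without obe2/Df replicate 1. rpr, the cell death inducer, fell from 76.6, 275 and 101 to 18.2, 43.7 and 18.6 (log2 change -2.34 ± 0.59, limma adjusted p = 0.0238), a call lost without obe2/Df replicate 1 (adjusted p = 0.0617). The caspase gene Nc (Dronc) and its activator Ark changed by -0.50 ± 0.09 and -0.53 ± 0.10. Xrp1, a stress-response transcription factor, rose from 569, 606 and 432 to 954, 2008 and 1978 (log2 change 1.55 ± 0.32, limma adjusted p = 0.0142), and here obe2/Df replicate 1 was the lowest of its group.

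The largest rises were taken by the same rule as the largest falls. Standing above obe1/obe2 in all 3 obe2/Df libraries was thus a condition of the rule. Low levels in obe1/obe2 were favoured by ranking on the size of the change, so neither feature is a separate result. CG43050 was at 3.83, 1.83 and 2.52 in obe1/obe2 against 717, 453 and 986 in obe2/Df (log2 change 7.56 ± 0.40, limma adjusted p = 0.00145). Ih, which encodes a hyperpolarization-gated ion channel, was at 66, 135 and 65.5 against 3366, 3442 and 4802 (log2 change 5.49 ± 0.33, limma adjusted p = 0.00145). mtsh, which the files name without a role, was at 7.66, 3.66 and 2.52 against 303, 256 and 353 (log2 change 5.86 ± 0.42, limma adjusted p = 0.0023). OreR was low for these genes too, at 0, 13.5 and 4.78 for CG43050 and 9.41, 27.1 and 15.5 for Ih, so their RNA was high in obe2/Df alone. The same held for CG9766 (flip, 4.61 ± 0.38), CG14669 (4.37 ± 0.31), CR43656 (5.26 ± 0.31), CG34334 (4.45 ± 0.21) and nrm, a cell adhesion gene (3.90 ± 0.21). CG31075 and CG5846 rose by 4.38 ± 0.39 and 4.01 ± 0.69, and the glutathione S-transferase gene GstO3 by 5.06 ± 0.89, with OreR between the groups. For other genes OreR was on the side of obe2/Df. GLaz, a lipocalin gene, was at 59.3, 126 and 88.2 in obe1/obe2, 1355, 1112 and 1503 in obe2/Df and 1640.4, 1431 and 1387 in OreR (log2 change 3.90 ± 0.31, limma adjusted p = 0.00298). Cyp6d2, a cytochrome P450, was at 4.79, 12.8 and 2.52 in obe1/obe2, 247, 1068 and 632 in obe2/Df and 550.3, 242 and 726 in OreR (log2 change 6.40 ± 0.70, limma adjusted p = 0.00687). Sdic1 and Sdic3, copies of a dynein intermediate chain gene on the X chromosome, rose by 6.00 ± 0.29 and 6.41 ± 0.55. They are near-identical members of a repeated cluster, so the split of reads between them is uncertain. OreR held 238, 233 and 297 counts of Sdic3 and 0, 8.46 and 5.97 of Sdic1. These differences hardly moved when obe2/Df replicate 1 was left out (for example 7.52 for CG43050 and 5.58 for Ih).

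In the full set of libraries, detoxification genes were split by family. Of 32 glutathione S-transferase genes, 9 rose (28.1%) and 6 fell (18.8%), close to the 23.4% and 17.1% of all tested genes. Without obe2/Df replicate 1 the counts were 8 higher and 1 lower. Among 11 tested GstD genes on 3R, with GstD11, which is not one of the 32, counted in, 6 fell, 0 rose and the median was -1.25. Since only 1 of the 32 was lower without obe2/Df replicate 1, most of the GstD falls among them depended on that library. The families were set apart with earlier results of these data known. GstD9 was at 403, 489 and 563 in obe1/obe2 against 25.4, 69.3 and 27.1 in obe2/Df, with 7.06, 40.6 and 15.5 in OreR (log2 change -3.69 ± 0.42, limma adjusted p = 0.00691). GstD1 was at 4271, 1312 and 1354 against 425, 473 and 714, with 43.5, 67.7 and 103 in OreR (log2 change -1.91 ± 0.49, limma adjusted p = 0.0242), and was not called without obe2/Df replicate 1 (adjusted p = 0.062). Among 13 GstE genes 5 rose and 0 fell, with a median of 0.82. GstE6 was at 159, 64.1 and 111 against 917, 1341 and 1989, with 1900.2, 1165 and 1404 in OreR (log2 change 3.68 ± 0.42, limma adjusted p = 0.00691). For GstD9, GstD1 and GstE6, OreR was nearer to obe2/Df than to obe1/obe2. Of 6 tested immunity genes, 3 rose and 1 fell. The thioester proteins Tep2 and Tep4 rose, Tep2 from 493, 566 and 397 to 1809.97, 1700.3 and 2499 (log2 change 2.04 ± 0.21, limma adjusted p = 0.00539). Tep4 rose by 1.59 ± 0.22, and PGRP-SC2, which encodes a peptidoglycan-degrading enzyme, changed by -3.54 ± 0.97 from low counts (4.79, 43 and 25.2 against 3.26, 0 and 0).

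Genes beside obe on 3R were examined by rank in the gene order of the reference. Of the 5 listed genes on each side, CG18522, the gene next to obe among those tested, passed the minimum mean and fell from 1841, 2266 and 1371 to 1095, 1264 and 995 (log2 change -0.68 ± 0.21, limma adjusted p = 0.0396). That call was lost without obe2/Df replicate 1 (adjusted p = 0.0931). The other 9 were below the minimum mean. On the other side, past the 5 listed genes, lay a run of lower genes, whose limits were chosen after seeing the values. Its last gene, Atx2, was the tested gene next to obe on that side. Among tested genes Atx2, obe and CG18522 thus fell in a row. Of the 20 tested genes before obe, from ea to Atx2, 15 fell and 0 rose, with a median log2 change of -0.83 and a median level of 55.8% of the obe1/obe2 mean. Of the 20 tested genes after obe, 1 fell, which was CG18522, and 6 rose (median 0.31). The 20 tested genes before ea had 4 falls and 5 rises. CG6236, next to ea and outside the run, had a log2 change of 0.38 ± 0.13, and ea itself was at 5006, 6014 and 4979.9 in obe1/obe2 against 1836, 2215 and 1828 in obe2/Df (log2 change -1.44 ± 0.12, limma adjusted p = 0.00338). Sra-1, a subunit of the actin-regulating WAVE complex, was at 17466, 19690.3 and 19100.3 against 6892, 7726 and 6399.9 (log2 change -1.42 ± 0.09, limma adjusted p = 0.00219). FK506-bp1, a prolyl isomerase, CG31301 and CG5038 changed by -1.20 ± 0.11, -1.31 ± 0.09 and -1.20 ± 0.11. Surf4, Trax and Atx2 changed by -0.87 ± 0.12, -0.83 ± 0.12 and -0.77 ± 0.17. Of the 5 genes in the run that were not called, CG5044, ldlCp, CG14868 and CG6136 lay between -0.01 and 0.48, and CG5073 at -0.31. In obe1/obe2 the genes of this stretch stood at a median of 91.1% of OreR. For ea and Sra-1 the 3 obe2/Df values lay close together. The labels do not give the breakpoints of the deficiency.

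**Figure D4:**
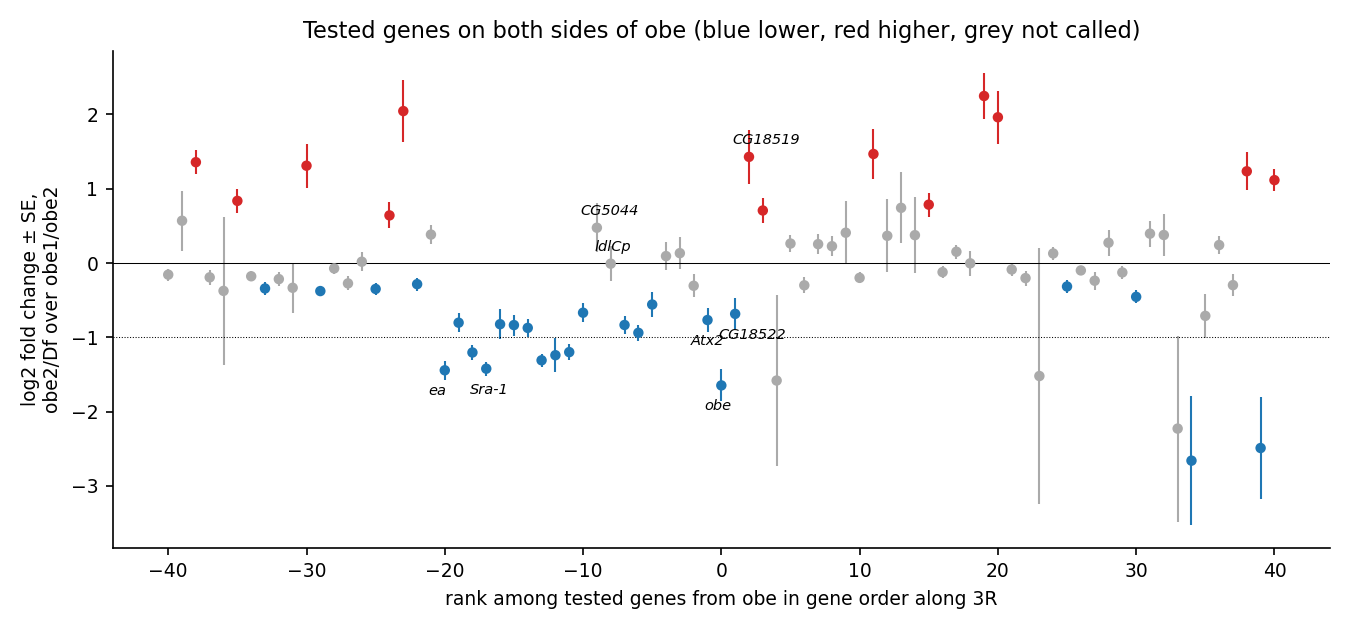
Log2 fold change ± SE of obe2/Df over obe1/obe2 for the tested genes up to rank 40 on each side of obe, in gene order along 3R (blue called lower, red called higher, grey not called). From ea at rank -20 to obe at rank 0, 15 of 20 genes and obe lie below 0 as calls, with a median of -0.83, and the run ends just after obe.

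Chromosome 4, the smallest chromosome of the fly, had a larger share of falls than the other arms. Of its 83 tested genes 35 fell and 3 rose, a share of 42.2% lower, against 16.1% to 18.0% on the other 5 arms. The median log2 change was -0.40, and -0.39 without obe2/Df replicate 1, while the medians of the other arms lay between -0.06 and 0.04. Over the 70 genes of the arm with a mean of at least 50, the median log2 ratio to the OreR mean was 0.09, 0.09 and 0.08 in the obe1/obe2 libraries and -0.29, -0.25 and -0.33 in the obe2/Df libraries. The 3 obe2/Df libraries were thus below all others and close to each other. The fall was shared by many genes of modest change, such as gw, the silencing partner of Argonaute, at 133562, 139035 and 141982 in obe1/obe2 against 107238, 103483 and 93563 in obe2/Df (log2 change -0.45 ± 0.08, limma adjusted p = 0.0115). Single genes moved far more. CG33978 was at 705, 644 and 873 in obe1/obe2, 33.2, 52.7 and 30.5 in obe2/Df and 50.6, 39.7 and 31 in OreR (log2 change -4.25 ± 0.29, limma adjusted p = 0.0023). CG31997 was at 4229, 4249 and 3311 in obe1/obe2, 395, 593 and 269 in obe2/Df and 90.5, 33 and 71.6 in OreR (log2 change -3.29 ± 0.29, limma adjusted p = 0.00338). For CG33978 and CG31997 OreR was thus on the side of obe2/Df, and obe1/obe2 was far above both. Zyx, which encodes the adhesion protein zyxin, was at 7292, 9369 and 11044 in obe1/obe2 against 3839, 4319 and 3908 in obe2/Df (log2 change -1.18 ± 0.16, limma adjusted p = 0.0093). CG32017 was the largest of the 3 rises on the arm (2.81 ± 0.28). RpS3A, a ribosomal protein gene of the same arm, had a log2 change of -0.16 ± 0.10 and was not called (limma adjusted p = 0.237). All genes named in this paragraph were chosen after their values were seen. The split by arm was also made after earlier looks at the data.

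**Figure D5:**
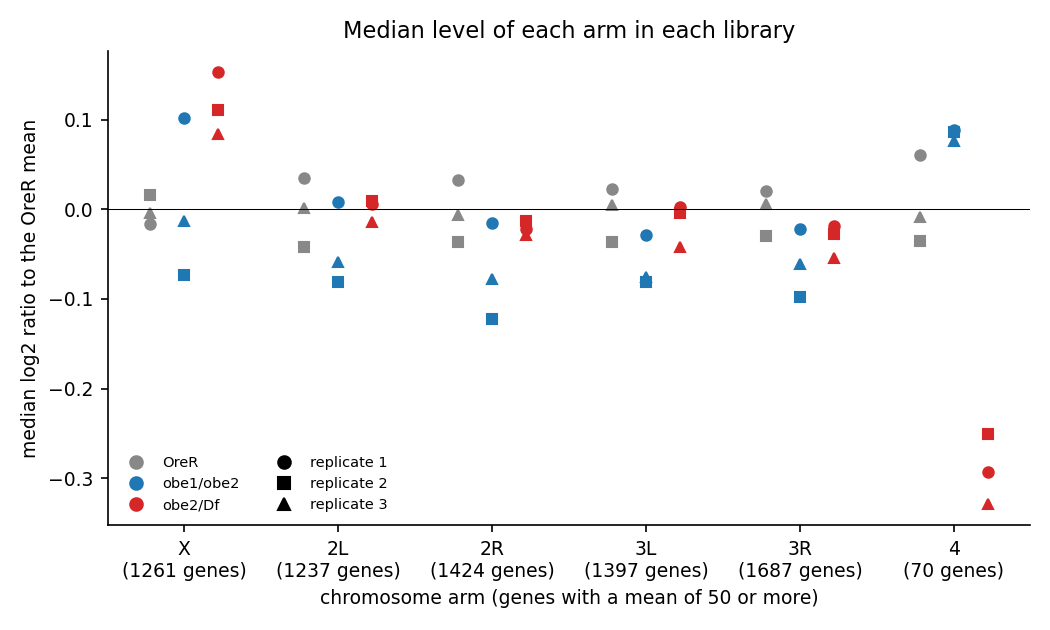
Median log2 ratio to the OreR mean for each chromosome arm in each of the 9 libraries, over genes that averaged 50 or more normalized counts, coloured by genotype with the replicate number as the marker shape. On chromosome 4 the 3 obe2/Df libraries lie between -0.33 and -0.25 while obe1/obe2 lies between 0.08 and 0.09.

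Other stretches of neighbouring genes had medians far from 0. Over 8093 windows of 15 tested neighbours, the median log2 change lay between -0.48 and 0.73 from the 1st to the 99th percentile. The lowest window, on 3L from CG15020 to CG13712, had a median of -3.41 with 10 falls, and includes CG13716, CG34266 and CG13712 of the largest falls. A second, on 3L around the Bearded-family genes BobA, Tom, Brd and Ocho, had a median of -2.05. The GstD cluster on 3R had a median of -0.90. The highest window, on X from CG17599 to CG17167, had a median of 1.50 with 9 rises, and includes CR43656, CG34334 and the gene they overlap, CG42346 (2.26 ± 0.24). A window on 2R from Rrp4 to Sesn had a median of 1.40 with 9 rises.

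Markers of other cell types were checked list by list, with few calls. Summed levels did not overlap between the groups for the hemocyte, muscle, trachea and cuticle, yolk and fat body, and male lists. Lack of overlap was common here, since 60.3% of all tested genes had it. Of 9 tested hemocyte markers 1 rose (crq) and 0 fell, and nimC1 and eater were at 0 in all 6 libraries. Their summed level was 11238 to 15482 in obe1/obe2 and 17438 to 22072 in obe2/Df, most of it from crq (13844, 9134 and 9979 against 16605, 14989 and 19393). None of 5 neuron markers was called, with sums of 654 to 886 in obe1/obe2 and 846 to 1125 in obe2/Df. Of 5 muscle markers how fell (-0.36 ± 0.08), with sums of 19507 to 21511 and 14926 to 16889. Of 6 trachea and cuticle markers Cht2 rose (1.53 ± 0.40), with sums of 331 to 441 and 671 to 1196, and Ccp84Aa and Cpr11B were at 0 in all 6. Of 4 yolk and fat body markers Cp1 rose (0.25 ± 0.07) and Lsp1gamma and Rfabg fell (-1.80 ± 0.27 and -1.15 ± 0.20). Sums of this list were 29766 to 32232 and 33507 to 37257, so they rose although Lsp1gamma and Rfabg fell. Rfabg was a small part of them, averaging 1073 in obe1/obe2 and 477 in obe2/Df. None of 21 follicle cell and eggshell markers reached the minimum mean, and their sums were 21.4 to 46.9 in obe1/obe2 and 31.3 to 37.1 in obe2/Df. Of 22 male accessory gland and sperm markers 2 were tested and 1, Sdic1, rose, with sums of 18.2 to 55.8 and 562 to 764. As said above, the split of reads between Sdic1 and its copies is uncertain. crq was not called without obe2/Df replicate 1 (limma adjusted p = 0.0626). The part of these markers in the results above was not tested.

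The library kit does not mark strand, so reads from a stretch that lies in exons of more than 1 gene cannot be told apart. Only whole gene spans, from start to end, were compared, and overlap of exons was not checked. Genes not named by rule are not covered here. For some genes the span overlapped that of another gene, so that part of their reads may be shared. Among the genes described and named by rule, this holds for scw, nullo, bnk, Sry-alpha, RhoGEF2, Dhc64C, Cip4, nuf, Kr, cnc, ush, l(1)sc, zfh1, T48, kuz, sc, CG13712, CG13716, CG34266, Dscam4, cort, osk, spz, vas, lok, grp, brat, pum, Not1, Rga, pgc, mael, aub, cuff, del, shu, Hsp83, DNApol-eta, DNApol-alpha180, Orc2, Orc4, Mcm3, Mcm7, dup, Cdc6, Pgk, CG7033, Rpn7, mRpS25, aPKC, cno, ed, scrib, mthl1, ena, pea, heph, Rrp45, Rrp40, mus301, Rrp6, eIF4AIII, nonC, dpn, vir, CG1832, Ark, mtsh, CG14669, CR43656, CG34334, CG31075, CG5846, Cyp6d2, Tep2, crq, Cht2, Cp1 and Rfabg.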

How the data were processed

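RNA was measured in 6 libraries of pooled embryos, 3 per mutant genotype, with 3 OreR libraries given as levels. The authors deposited a matrix titled normalized featureCounts counts. Its signal values, as deposited, were whole reads (100% of values, within 0.001) divided by 1 factor per library, and the recovered reads served for edgeR 4.0.16 and DESeq2 1.42.0. STAR, Cuffdiff, Cufflinks 2.1.1 and dm3 are listed, without roles, in the submitters' processing notes. The genotypes were compared with limma 3.58.1 (R 4.3.3, trended variance) on log2(normalized count + 1) over genes averaging 10 or more, with Benjamini-Hochberg adjustment over all of them and a threshold of 0.05. The pseudocount understates fold changes of low genes, and ± is the standard error of the log2 change. The procedure was run on simulated data with few changed genes and noise drawn independently for each gene. Here 40.5% of genes were called and the counts depended on single libraries. That run therefore does not show how the procedure performs on these data. Names, arms and gene order came from a Release 6 annotation (11817 genes matched by symbol, 3239 by synonym, 278 unmatched), so no coordinates are given. Replicates differed by far more than sampling noise (chi-square per degree of freedom 47.1 to 256).

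The genes and lists were chosen with earlier results of these data known. A rule named obe, crb, the 15 largest changes each way (average of 50 or more, groups not overlapping), up to 4 called members per list and direction by smallest p, and 5 genes on each side of obe. zen, zen2, Bsg25A, hb, eve, twi, CycB, smg, exu, trk, spir, Hsp68, dhd, BicC, yl, Gapdh2, sqh, zip, tst, Sxl, roX1, CG6236, Sra-1, FK506-bp1, CG31301, CG5038, Surf4, Trax, Atx2, gw, CG33978, CG31997, Zyx, CG32017, RpS3A, CG42346, Arc1, Arc2, phr, Xpac and Jra lie outside that rule and were picked after their values were seen.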

Additional observations from a re-analysis of the deposited data

How the results depend on the processing

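The alternatives were a fit on all 9 libraries, TMM factors or quantile normalization, limma array weights, edgeR, DESeq2, a replicate block, no filter or a minimum mean of 50, other pseudocounts (0.5 and 5), and each library left out. Over the settings that used all 6 libraries, the count of genes higher ran from 1751 to 2528 and the count lower from 1299 to 2384, and no gene called in a setting and in the main comparison had opposite directions. With array weights 2384 genes were lower. With a minimum mean of 50, 161 genes were at least 2-fold lower, since fewer genes were tested (7156). With quantile normalization 45.4% of calls were higher, against 57.8%, and the cause was not tested. Leaving out 1 library at a time, 491 to 2241 genes were higher, 231 to 1643 lower, 414 to 1284 at least 2-fold higher and 78 to 253 at least 2-fold lower. Fewer samples enter these fits. Of the 209 called genes named by rule, 61 stayed called in every alternative run and 166 in every alternative with all 6 libraries.

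The replicate numbers were not taken as pairs. Deviations of same-numbered libraries correlated at 0.517, 0.406 and 0.00349 for numbers 1, 2 and 3, and both libraries numbered 3 correlated best with a library numbered 2 (0.078 and 0.374). With the number as a replicate block 2202 genes were higher and 1678 lower, and 7 of the named genes lost their call. Totals of at least 61007517 reads left 7047 genes of the matrix below the minimum mean, and for these no difference was looked for.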

Other observations

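Some further genes, picked after their values were seen, are described here as values. Arc1 and Arc2, neighbouring genes whose products resemble retrotransposon capsids, were low in both mutant groups and lowest in obe1/obe2. Arc1 was at 308, 829 and 435 normalized counts in obe1/obe2, 3182, 2960.1 and 2497 in obe2/Df and 18332, 17892 and 16181 in OreR (log2 change 2.57 ± 0.35, limma adjusted p = 0.00973). Arc2 was at 59.3, 45.8 and 37.8 in obe1/obe2, 422, 692 and 809 in obe2/Df and 2232, 1884 and 2132 in OreR (log2 change 3.69 ± 0.33, limma adjusted p = 0.00338). Both phr and Xpac, genes of DNA repair, rose. phr, a photolyase, was at 561, 194 and 195 in obe1/obe2 and at 1997, 2088 and 2396 in obe2/Df (log2 change 2.95 ± 0.42, limma adjusted p = 0.00973). Xpac, of nucleotide excision repair, was at 313, 75.1 and 55.5 in obe1/obe2 and at 939, 1053 and 1140.3 in obe2/Df (log2 change 3.24 ± 0.62, limma adjusted p = 0.0125). Jra, the fly Jun, was at 772, 455 and 188 in obe1/obe2 and at 2433, 2376 and 2804 in obe2/Df (log2 change 2.64 ± 0.48, limma adjusted p = 0.0118). In these 5 genes every obe2/Df library was above every obe1/obe2 library, as in 31.1% of all tested genes.

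In each library 58.3% to 61.3% of the recovered read counts above 0 were even numbers, and 743 to 937 genes had 2 reads where 151 to 194 had 1.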
